A study of Sus scrofa with 6 samples.

Results

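The data described here are 10 genes of macrophages and of microglia, the macrophages of the brain: CSF1R, CX3CR1, AIF1, P2RY12, MRC1, C1QA, C1QB, C1QC, APOE and SPP1. They were picked by name. Each was found on 1 row of the tables of hypothalamus, pituitary and ovary, so that 10 of 19465 Ensembl pig genes are described, in all 6 libraries. The libraries came from primiparous sows, crosses of Landrace x Large White, either in estrus or in anestrus put down to inactive ovaries. Each tissue has 1 library per state. According to the labels 3 sows stood for a state, but they give no age and do not say whether RNA was pooled across sows. No group has a replicate, so every value describes a pair of libraries, and no test of the states within a tissue was made here.

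Macrophages depend on the receptor CSF1R for survival and are found in nearly every tissue. Microglia are their counterpart in the brain and carry the receptors CX3CR1 and P2RY12 at rest. In the ovary, macrophages surround follicles and corpora lutea and clear dying cells. C1q, assembled from the products of C1QA, C1QB and C1QC, starts the classical pathway of complement and tags cells for uptake, and macrophages and microglia are a main source of it.

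Libraries held between 15314325 and 17384789 reads assigned to genes. Levels across tissues are given in RPM, the reads of a gene scaled to 1000000 reads of its library. Anterior pituitary hormone genes took 248751 and 259505 RPM in the estrous and anestrous pituitary libraries and at most 458.5 in the other tissues. Astrocyte genes summed to 17799 and 12319 RPM in the hypothalamus, and granulosa, theca and luteal genes to 14921 and 4483 in the ovary. The tissues thus carried their own markers. Because these are bulk samples, fewer cells of a type and less RNA per cell cannot be told apart in any value below.

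In the ovary, 5 of the 10 genes were at least 2-fold higher in anestrus (CSF1R, CX3CR1, AIF1, APOE and SPP1), and none was 2-fold lower. Of the others, MRC1, P2RY12, C1QA and C1QC stayed within 2-fold and C1QB had too few reads to place. To be counted, a gene needed a mean normalised read count of 50 or more and a log2 fold (pseudocount 1) of 1 or more in size. Of all ovarian genes over that floor, 12.3% were higher and 7.95% lower. In the hypothalamus, CSF1R was the only one of the 10 past 2-fold, and it was higher, where 1.29% of all genes were higher and 1.04% lower. In the pituitary, CSF1R and SPP1 were higher and none was lower, against 1.2% and 1.9% of all genes.

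**Figure D1:**
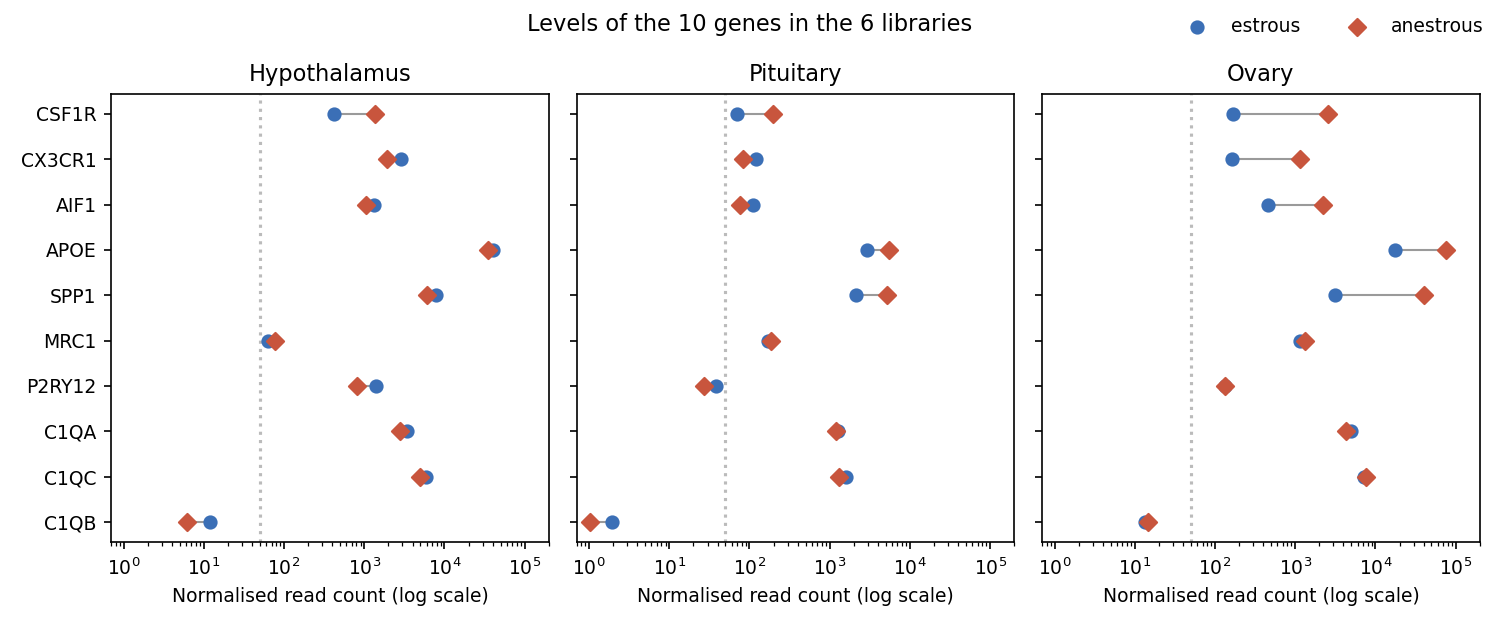
Normalised read count (log scale) of each gene in the estrous (circles) and anestrous (diamonds) library of the 3 tissues; the dotted line is the floor of 50. In the ovary the first 5 genes have separate symbols and the lower 5 have overlapping ones, while in the hypothalamus CSF1R shows the widest gap among genes over the floor.

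CSF1R (ENSSSCG00000014441) encodes the receptor for the growth factors CSF1 and IL34. It gave 176 reads in the estrous ovary and 2439 in the anestrous ovary, which made its normalised read count 15.0-fold higher (95% counting interval 12.9 to 17.6). It gave 421 and 1330 reads in the hypothalamus, 3.26-fold higher (2.92 to 3.65), and 72 and 193 in the pituitary, 2.84-fold higher (2.16 to 3.78). CSF1R was thus higher in the anestrous library of all 3 tissues and was the only gene of the 10 at least 2-fold different in each. Of 9349 genes over the floor in all 3 tissues, 12 were at least 2-fold higher in every tissue (0.128%). Intervals are exact (Clopper-Pearson) and cover counting error only. In the authors' deposited table the adjusted p of CSF1R was 6.59e-06 in the hypothalamus, 0.252 in the pituitary and 0.000963 in the ovary. Its neighbours in the order of the RefSeq assembly Sscrofa11.1, HMGXB3 and PDGFRB, did not share its folds. In the ovary HMGXB3 had a log2 fold of 0.11 and PDGFRB, entered as the sum of 2 rows, one of -0.11. In the other tissues both lay between -0.31 and -0.04.

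CX3CR1 encodes the receptor of fractalkine, through which microglia and monocytes sense neurons and vessel walls. It gave 172 and 1091 reads in the estrous and anestrous ovary, 6.87-fold higher (5.85 to 8.12). In the hypothalamus it gave 2941 and 1881 reads, 1.51-fold lower (1.43 to 1.61), and in the pituitary 124 and 81, 1.44-fold lower (1.08 to 1.94). The direction in the ovary was opposite to that in the other tissues. The ligand gene CX3CL1, named after its values were seen, had 226 and 89 reads in the ovary, a log2 fold of -1.22, and 844 and 999 in the hypothalamus, a log2 fold of 0.29. In the authors' deposited table the adjusted p of CX3CR1 was 0.0663 in the ovary and 0.974 in the hypothalamus. Its neighbour XIRP1 in the RefSeq order had an ovarian log2 fold of 2.37 at a mean of 79.1, against 2.77 for CX3CR1. XIRP1 was under the floor in the other tissues, and the neighbour on the other side, CCR8, was under it in every tissue. Whether the ovarian folds of CX3CR1 and XIRP1 are linked was not tested.

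AIF1 encodes the actin-binding protein Iba1, a common stain for microglia. It had 483 and 2142 reads in the ovary, 4.81-fold higher (4.35 to 5.32). In the hypothalamus it had 1347 and 1039 reads, 1.26-fold lower (1.16 to 1.36), and in the pituitary 114 and 74, 1.45-fold lower (1.08 to 1.98). AIF1 therefore had the same directions as CX3CR1 in each tissue. In the RefSeq order AIF1 overlaps LST1, another leukocyte gene, whose mean was 37.5 in the ovary with a log2 fold of 0.08. In the authors' deposited table the adjusted p of AIF1 was 0.213 in the ovary.

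APOE encodes a carrier of cholesterol that is made by macrophages, by astrocytes and by steroid-making cells. It gave 18511 and 73747 reads in the ovary, 4.32-fold higher (4.25 to 4.39). In the pituitary it gave 3015 and 5364, 1.89-fold higher (1.80 to 1.97), and in the hypothalamus 41143 and 34000, 1.17-fold lower (1.16 to 1.19). In the authors' deposited table its adjusted p was 0.163 in the pituitary and 1 in the ovary and in the hypothalamus. Genes of other cells that can make APOE differed from it in the ovary: 9 of 10 granulosa, theca and luteal genes were at least 2-fold lower, with STAR at a log2 fold of -4.56. The exception, HSD3B1, was at 2.38 and is named after its value was seen. In the hypothalamus the 4 measured astrocyte genes stayed within 2-fold (median -0.10), from GFAP at -0.54 to SLC1A3 at 0.17. The part of these cells in the APOE values was not tested.

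SPP1 encodes osteopontin, a secreted protein that binds integrins and CD44 and is made by activated macrophages among other cells. It gave 3238 and 39285 reads in the ovary, 13.1-fold higher (12.7 to 13.6), and 2162 and 5094 in the pituitary, 2.50-fold higher (2.37 to 2.63). In the hypothalamus it gave 7907 and 6013 reads, 1.27-fold lower (1.23 to 1.32). SPP1 and APOE thus shared their directions in the 3 tissues. In the authors' deposited table the adjusted p of SPP1 was 0.00209 in the pituitary and 0.332 in the ovary.

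**Figure D2:**
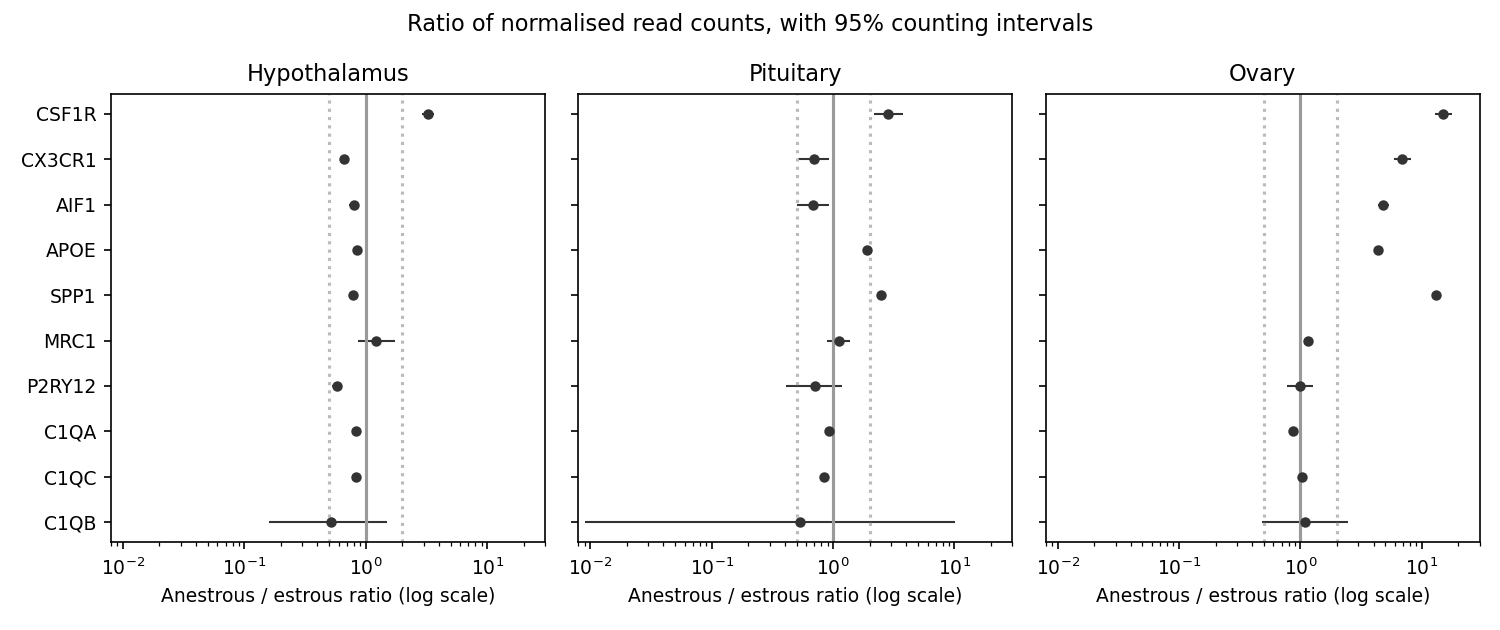
Ratio of the anestrous to the estrous normalised read count (log scale) for each gene and tissue; bars are 95% counting intervals, the solid line marks equal levels and the dotted lines 2-fold. The ovarian ratios of CSF1R, CX3CR1, AIF1, APOE and SPP1 lie between 4.32 and 15.0, while the other 5 lie between 0.875 and 1.16.

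The remaining genes did not reach 2-fold in any tissue. MRC1 encodes the mannose receptor, a marker of resident and scavenging macrophages. It gave 1204 and 1288 reads in the ovary, a ratio of 1.16 (1.07 to 1.26). The pituitary libraries held 173 and 181 reads, a ratio of 1.11 (0.895 to 1.37). The hypothalamic libraries held 64 and 76, a ratio of 1.23 (0.867 to 1.74). Its ratio was above 1 in all 3 tissues, with an interval clear of 1 in the ovary only. With equal library totals the ovarian log2 fold went from 0.21 to 0.01. P2RY12 encodes the ADP receptor that marks resting microglia. It had 138 and 127 reads in the ovary, a ratio of 0.997 (0.777 to 1.28), and 1434 and 806 in the hypothalamus, 1.72-fold lower (1.58 to 1.88). In the pituitary it had 39 and 26 reads, under the floor, and its interval (0.413 to 1.19) included 1. Among the genes of the 10 over the floor, P2RY12 had the lowest hypothalamic ratio, with an adjusted p of 0.379 in the authors' deposited table. In the RefSeq order P2RY12 overlaps MED12L, which had means between 4.44 and 35.1 and a log2 fold of 0.70 in the hypothalamus. The neighbour P2RY13 had a hypothalamic log2 fold of -0.84, against -0.78 for P2RY12. IGSF10, on the other side, was under the floor there.

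Of the C1q genes, C1QA (ENSSSCG00000003524) gave 5114 and 4130 reads in the estrous and anestrous ovary, 1.14-fold lower (1.10 to 1.19). C1QC (ENSSSCG00000003525) gave 7608 and 7294, a ratio of 1.04 (1.01 to 1.07), which was below 1 when the library totals were made equal. In the hypothalamus C1QA gave 3429 and 2754 reads, 1.21-fold lower (1.15 to 1.27), and C1QC 6055 and 4903, 1.20-fold lower (1.15 to 1.24). Both were thus lower by nearly the same factor there. In the pituitary C1QA gave 1324 and 1155 reads, a ratio of 0.924 (0.854 to 1.00), and C1QC 1624 and 1283, 1.19-fold lower (1.11 to 1.29). The adjusted p of each C1q gene was 1 in every tissue in the authors' deposited table.

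C1QB (ENSSSCG00000003526), the gene of the chain that pairs with the C1QA product in the assembled protein, carried almost none of the C1q reads. It had 14 reads in each ovary library, 12 and 6 in the hypothalamus and 2 and 1 in the pituitary, that is, between 0.0410% and 0.126% of the reads of the 3 genes. No length of these gene models was used here, so this is a statement on assigned reads and not on transcript levels. The table of Ensembl gene names used here does not hold the IDs under which C1QB, C1QC and AIF1 are listed, and gives these symbols to other IDs. Whether the gene model of C1QB accounts for its count was not tested. Its ratio could not be resolved in any tissue, with intervals of 0.159 to 1.49 in the hypothalamus, 0.00898 to 10.2 in the pituitary and 0.479 to 2.45 in the ovary.

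The share of C1QC in the reads of C1QA and C1QC was then compared. C1QC took 63.8% (62.9 to 64.8) of these reads in the estrous hypothalamus and 64.0% (62.9 to 65.1) in the anestrous one. It took 55.1% (53.3 to 56.9) and 52.6% (50.6 to 54.6) in the pituitary. In the ovary it took 59.8% (58.9 to 60.7) in estrus and 63.8% (63.0 to 64.7) in anestrus. The intervals of the states overlapped in hypothalamus and pituitary and were apart in the ovary.

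Reading each gene against the C1q reads of its own library removes the size factor from the comparison. For each 1000 C1q reads, the estrous ovary had 13.8 CSF1R reads (11.8 to 16.0) and the anestrous ovary 213 (204 to 223). CX3CR1 had 13.5 (11.6 to 15.7) and 95.4 (89.6 to 102), and AIF1 had 37.9 (34.6 to 41.5) and 187 (179 to 196). MRC1 stood at 94.5 (89.0 to 100.3) and 113 (106 to 119), and P2RY12 at 10.8 (9.09 to 12.8) and 11.1 (9.25 to 13.2). C1QA and C1QC were themselves near level in the ovary, so these values restate the ovarian ratios above rather than add to them. For CSF1R the ratio was 15.4 by this measure and 15.0 by normalised read counts. In the hypothalamus the same measure was nearly level for AIF1 (142 and 136), APOE (4333 and 4437) and SPP1 (833 and 785). P2RY12 (151 and 105) and CX3CR1 (310 and 245) were lower in anestrus there, and CSF1R (44.3 and 174) was higher. In the pituitary CSF1R had 24.4 and 79.1 reads per 1000 C1q reads, and MRC1 58.6 and 74.2.

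**Figure D3:**
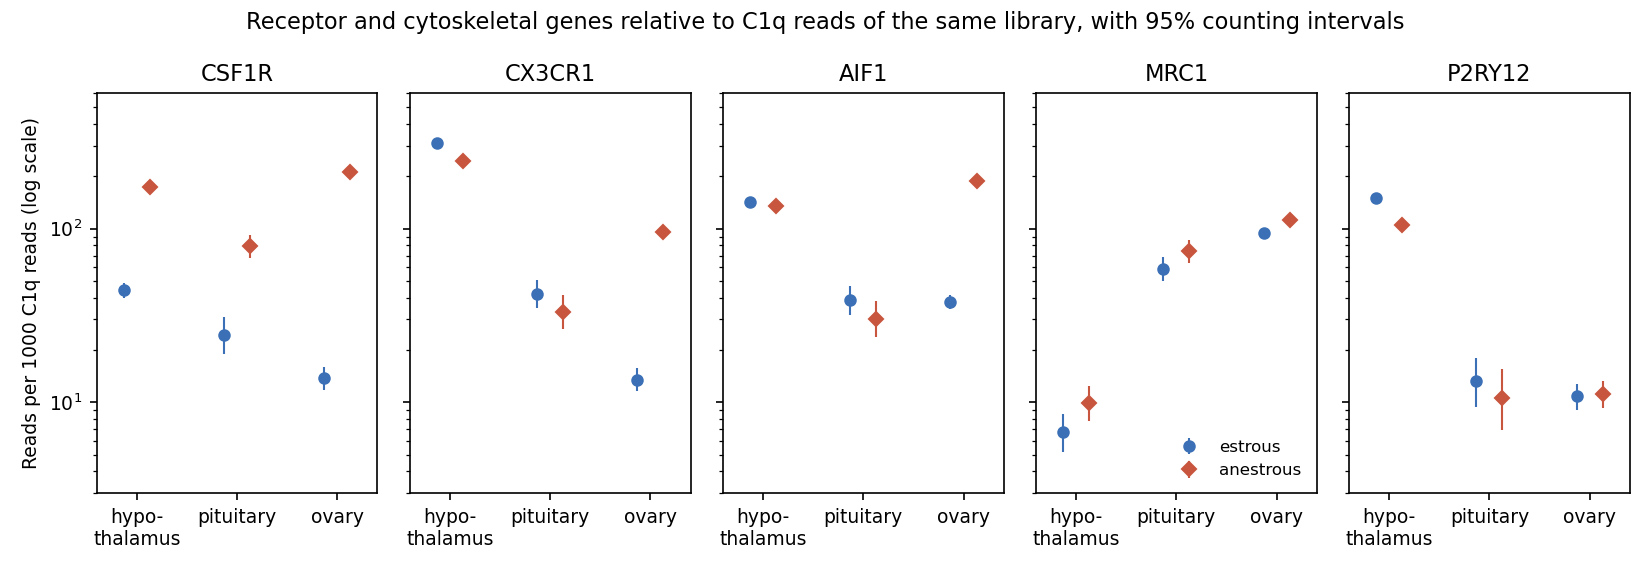
Reads of 5 genes per 1000 C1q reads (C1QA, C1QB and C1QC summed; log scale) in each tissue, estrous (circles) and anestrous (diamonds), with 95% counting intervals. CSF1R is higher in anestrus in every tissue, CX3CR1 and AIF1 are higher in the ovary only, and P2RY12 is level in the ovary at 10.8 and 11.1.

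Levels across tissues were set side by side after scaling each library to its total, since the tables were normalised separately. CX3CR1 was highest in the hypothalamus, with 192 and 119 RPM in estrus and anestrus, against 11.1 and 66.4 in the ovary and 7.29 and 4.66 in the pituitary. P2RY12 had the same order, with 93.6 and 51.0 in the hypothalamus, 8.91 and 7.73 in the ovary and 2.29 and 1.50 in the pituitary. MRC1 ran the other way, with 77.7 and 78.4 in the ovary, then the pituitary at 10.2 and 10.4 and the hypothalamus at 4.18 and 4.81. Within each tissue, the MRC1 values of the states had overlapping Poisson intervals.

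C1QA was highest in the ovary in both states, with 330 and 251 RPM, followed by the hypothalamus with 224 and 174 and the pituitary with 77.8 and 66.4. C1QC kept the same order of tissues. For 4 of the 10 genes, CSF1R, AIF1, APOE and SPP1, the hypothalamus was the highest tissue in estrus and the ovary in anestrus. CSF1R had 27.5 RPM in the estrous hypothalamus and 11.4 in the estrous ovary, but 84.1 and 148 in the anestrous libraries. SPP1 had 516 and 209 in estrus and 380 and 2390 in anestrus. APOE had 2687 and 1195 in estrus and 2150 and 4487 in anestrus. The pituitary was lowest in both states for each of these 4 genes, although the estrous ovary and the anestrous pituitary overlapped for CSF1R.

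Genes that act with the 10 were read from lists, counting members with a mean of at least 10, for which 13.6% of all ovarian genes over that floor were at least 2-fold higher and 10.7% lower (median log2 fold 0.01). At that floor the shares were 1.99% and 2.61% in the hypothalamus and 2.27% and 4.23% in the pituitary. Of 11 measured ligands of CSF1R and regulators of myeloid cells, 10 were at least 2-fold higher in the ovary and none lower (median log2 fold 1.90). SPI1, the gene of the myeloid transcription factor PU.1, had 821 and 4432 reads and a log2 fold of 2.55. CSF1, a ligand of CSF1R named here for that role after its values were seen, had 232 and 447 reads and a log2 fold of 1.06. In the hypothalamus none of the 11 passed 2-fold and all 11 lay below 0 (median -0.36), with CSF1 at -0.80, so that CSF1R stood on the other side of 0 from them.

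Of 8 measured genes of resting microglia, 4 were at least 2-fold higher in the ovary and none lower. LAPTM5, a lysosomal membrane protein gene of leukocytes, was at 2.29. Below 0 lay 2 of the 8: OLFML3, with 17307 and 9141 reads (-0.80), and SALL1, with 63 and 37 (-0.64). The list summed to 1530 and 1588 RPM in the estrous and anestrous ovary, of which OLFML3 gave 1117 and 556. The ovarian median log2 fold of the list was 1.07. In the hypothalamus all 9 measured lay below 0, none past 2-fold (median -0.34), with P2RY13, a purine receptor gene, at -0.84 and ITGAM, the gene of the integrin CD11b, at -0.55. Among 8 purine receptor and ectonucleotidase genes in the hypothalamus, 1 was at least 2-fold lower, P2RY6, with 287 and 74 reads and a log2 fold of -1.90. P2RY6, the receptor through which microglia sense UDP, was at 2.54 in the ovary. These hypothalamic directions were those of CX3CR1, P2RY12, AIF1, C1QA and C1QC.

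Of 13 measured genes of phagocytes and lipid-laden macrophages, the anestrous ovary had 11 past 2-fold higher and none lower (median 1.63). LYZ (lysozyme) had 1648 and 75250 reads and a log2 fold of 5.63, CHI3L1 one of 3.46, and TREM2, a lipid-sensing receptor gene of macrophages, 226 and 1295 reads and one of 2.63. Of 11 osteopontin receptors and partners, 8 passed 2-fold higher in the ovary and none lower (median 1.60), with CD44 at 2.62, the integrin gene ITGB3 at 2.60 and IBSP, a bone matrix gene of the same family as SPP1, at 4.69. Receptors and lipid transport partners of APOE were split in the ovary: 6 of 11 were higher and 3 lower. CLU (clusterin) was at 4.02, while the receptor gene LRP8 was at -2.32.

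Scavenger and resident macrophage genes were also split in the ovary, with 5 of 9 at least 2-fold higher and 1 lower. MARCO, MSR1 and CD14 had log2 folds of 3.06, 2.68 and 2.11. Other genes of this list, named after their values were seen, lay with MRC1: STAB1 had 4761 and 4783 reads and a log2 fold of 0.12, and LYVE1 had 2176 and 1840 and one of -0.13. FOLR2, a folate receptor gene of resident macrophages, had 2043 and 777 reads and a log2 fold of -1.28. STAB1 lay on the other side of 0 when library totals were made equal. Of 14 measured complement genes beside C1q, 4 were at least 2-fold higher in the ovary and 2 lower: C3 was at 1.77 and the receptor gene C5AR1 at 1.63, while C5 was at -2.68. C4A and the C1 inhibitor gene SERPING1, also named after their values were seen, were at -0.79 and -0.64.

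**Figure D4:**
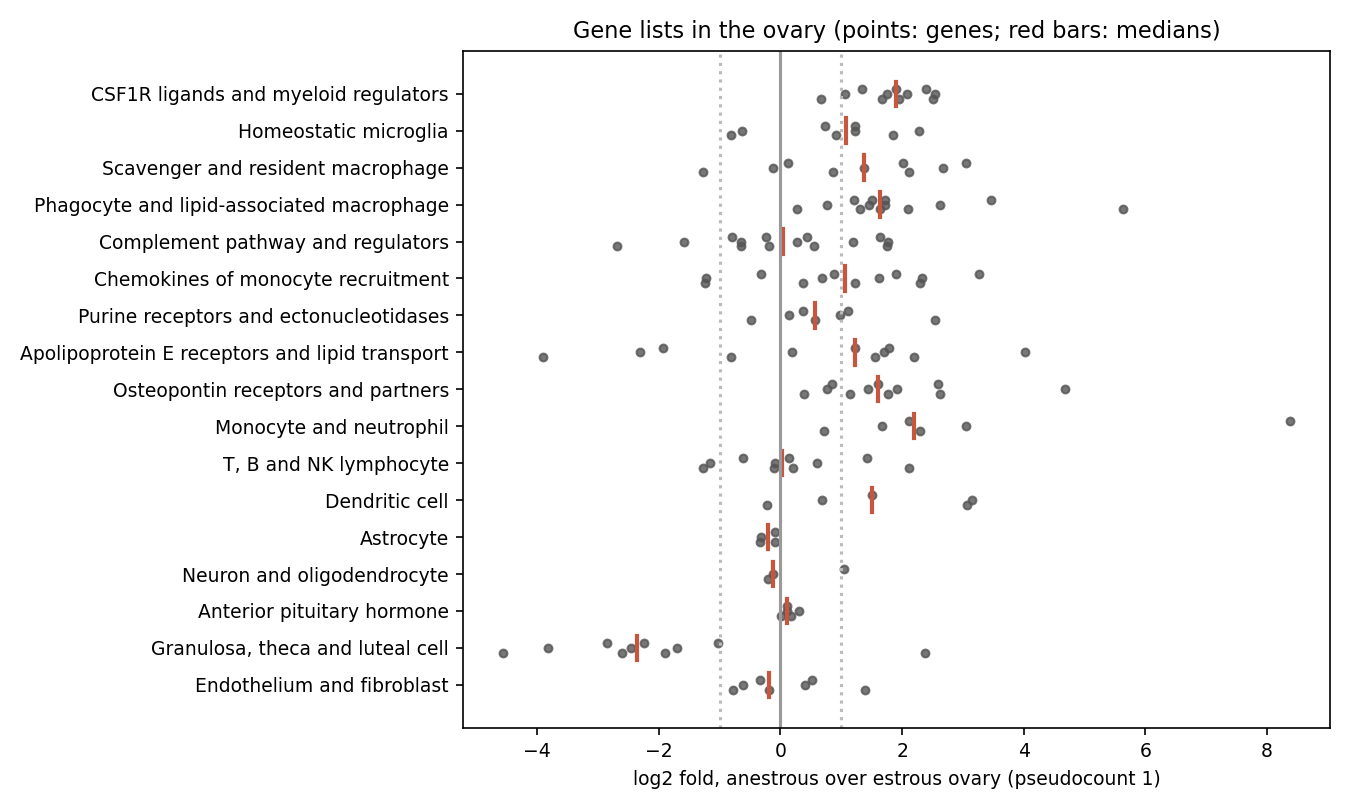
Log2 fold (anestrous over estrous ovary, pseudocount 1) of every listed gene with a mean normalised read count of at least 10, by list; red bars are medians and dotted lines 2-fold. Lists of myeloid regulators, phagocytes, osteopontin receptors and monocytes lie right of 0, complement genes lie on both sides, and granulosa, theca and luteal genes lie left except HSD3B1.

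Markers of other cell types in the ovary are given beside these values. Of 6 measured monocyte and neutrophil genes, 5 passed 2-fold higher and none lower (median 2.20). The list summed to 316 and 768 RPM, of which VCAN, at a log2 fold of 0.71, gave 268 and 382. S100A12 had 10 and 3401 reads, LTF a log2 fold of 3.05 and MMP8 0 reads in both libraries. MPO, a defining neutrophil gene, had 0 and 12 reads, under the floor of 10. Chemokines and receptors of monocyte recruitment were higher in 6 of 12 and lower in 2, with CCL2 at 3.26 and CCR1 at 2.32. Dendritic cell genes were higher in 3 of 5, none lower, with CCR7 at 3.15. T, B and NK lymphocyte genes were higher in 2 of 10 and lower in 2, near the shares of all genes, with a median of 0.03 (-0.17 with equal library totals) and NKG7 at 1.43. Endothelial and fibroblast genes were higher in 1 of 7, LUM at 1.39, and lower in none. Below 0 lay 4 of the 7 (median -0.19), and that list summed to 13485 and 7454 RPM. The part of each of these cell types in the values of CSF1R, CX3CR1, AIF1, APOE and SPP1 was not tested.

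In the pituitary, where CSF1R and SPP1 were higher, most listed genes stayed within 2-fold. Of 11 measured CSF1R ligands and myeloid regulators, 2 were past 2-fold lower and none higher, with the signalling phosphatase gene INPP5D at 137 and 64 reads. None of 8 measured genes of resting microglia passed 2-fold (median -0.26), and 4 of 13 phagocyte genes were lower, with LYZ at 133 and 59 reads. Of 10 osteopontin receptors and partners none passed 2-fold, and among 10 partners of APOE the receptor gene VLDLR was higher, with 972 and 1915 reads. Of 5 monocyte and neutrophil genes 1 was higher, LTF, with 109 and 211 reads. That list summed to 30.3 and 36.4 RPM, of which VCAN gave 12.8 and 9.84. Of 8 lymphocyte genes 4 were lower and none higher (median -0.93, and -0.04 with a floor of 50). The list summed to 53.1 and 59.6 RPM, since its most abundant members, the B cell receptor genes CD79A and CD79B, named after their values were seen, were at 0.76 and 0.71. The part of these cells in the pituitary values of CSF1R and SPP1 was not tested. In the hypothalamus the monocyte and neutrophil list summed to 169 and 128 RPM, of which VCAN gave 134 and 92.7. Of its 5 measured genes 1 was higher, S100A12, with 6 and 23 reads. None of 6 neuron and oligodendrocyte genes passed 2-fold there.

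Genes with the pattern most like that of CSF1R were sought among 8487 named genes over the floor in all 3 tissues, by the Euclidean distance of the log2 folds. The nearest were IGLON5 (distance 1.42), SLA-DRB1 (1.57), PLA2G3 (1.67), SLC2A6 (1.68) and RAB6B (1.95). None lay close, since each distance was over 1 on the log2 scale. SLA-DRB1, an MHC class II gene, had log2 folds of 1.12, 1.11 and 2.49 in hypothalamus, pituitary and ovary, against 1.70, 1.49 and 3.90 for CSF1R. C1QB was under the floor in every tissue and got no such search. C1QC, taken in its place after the values were seen, had 5 neighbours within 0.0675, PPP4R1L nearest, none of them a gene of the lists used here.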

How the data were processed

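RNA of 3 tissues was sequenced in 6 libraries (TruSeq RNA kit, per the labels' protocols). TopHat2 2.1.0 is named in the submitters' processing notes, and DESeq per the labels. Read counter, genome build, annotation release and strand use are not given in the sources used here. Overlapping genes are therefore uncertain. In the deposited tables, 1 per tissue, the signal is each gene's count over a size factor. The p-value and adjusted p-value of each pair of libraries are the authors', per the file headers. All values above 0 (100%) were whole multiples of the smallest within 0.01, so reads were recovered by division. Symbols came from the tables, then from Ensembl names (14419 of 19465 rows). Of 194 genes on 17 lists, 162 were found, with rows of a shared symbol summed.

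Folds and exact binomial 95% intervals were computed in Python 3.11.15 with scipy 1.17.1. Members and lists were chosen with earlier results of these data known. Named genes were the 10, up to 3 per list and tissue with the largest absolute log2 fold over the floor of 50, and 5 genes nearest in pattern. Genomic neighbours, list markers at or near 0 reads and a few further list genes, FOLR2 among them, were named outside that rule, after their values were seen. Tested on simulated reads with Poisson error only, the 2-fold rule recovered 100% of 200 simulated 4-fold differences in each tissue (11390, 10720 and 10902 genes). Differences of that size pass the rule nearly by construction. The simulated reads held no spread between sows, so the result does not bear on how often the rule calls a gene falsely. Alternatives were other scalings, pseudocount, floors, the authors' adjusted p and the interval. A count test, edgeR 4.0.16 in R 4.3.3, was added after the data were seen. Promoter and protein sequences were not used here, and some listed genes are not reported by name.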

Additional observations from a re-analysis of the deposited data

Results flagged for a closer look

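Some of the 10 genes had opposite directions in different tissues, with both 95% counting intervals clear of equal levels and at least 1 of the folds past 2-fold. The difference was not tested in any of these cases, since each tissue has 1 library per state. CX3CR1 was higher in the anestrous ovary and lower in the other anestrous tissues, so that its log2 fold in the ovary exceeded that in the hypothalamus by 3.37 and that in the pituitary by 3.30. AIF1 had the same directions, with differences of 2.59 and 2.80. APOE was higher in the ovary and lower in the hypothalamus, a difference of 2.34. SPP1 was higher in ovary and pituitary and lower in the hypothalamus, with differences of 4.07 and 1.67.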

How the results depend on the processing

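Of 42 recounts of the 10 genes past 2-fold, 39 stayed within 1.5 times the reported count. The settings were other scalings (totals made equal, or TMM), pseudocount 5, other floors (none or 200), the deposited adjusted p and an interval wholly beyond 2-fold. Those 39 include every recount of genes at least 2-fold lower. The reported count of lower genes was 0 in each tissue and stayed 0, which the stricter settings could not have changed. Requiring also an adjusted p up to 0.05 in the authors' deposited table left 1 gene in the ovary (CSF1R) and 1 in the pituitary, and with a floor of 200, 1 was left in the pituitary (SPP1). In those cases fewer genes could pass by construction. Equal library totals shifted the log2 scale by -0.09 in the hypothalamus, -0.12 in the pituitary and -0.20 in the ovary, less for genes of few reads, and 2 of 90 refitted folds of the 10 genes changed sign, C1QC (0.06 to -0.15) and C1QB (0.11 to -0.08) in the ovary. Of 138 recomputed list medians, 12 changed sign, and 3 moved by 0.25 or more. Those moved were pituitary medians with a floor of 50: T, B and NK lymphocytes from -0.93 to -0.04, CSF1R ligands and myeloid regulators from -0.20 to 0.14, and monocytes and neutrophils from 0.88 to 0.60. No gene of the 10 has more than 1 row, so summing rows gave nothing new. The count test on the recovered reads, blocked by tissue, takes the tissues for replicates, although they are none: edgeR called 0 of 13533 genes at an adjusted p of at most 0.05, with 484 at an unadjusted p of at most 0.05. No paired analysis was possible because, within a tissue, each state holds 1 library and the labels give no replicate numbers. The ratios of C1QB in all tissues and of P2RY12 in the pituitary rest on few reads and were not resolved.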
